A study of Mus musculus with 6 samples.

Results

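The 8 genes described here are core components of the Hedgehog pathway: the ligands Shh and Ihh, the receptor Ptch1, the ligand-binding inhibitor Hhip, the membrane transducer Smo and the transcription factors Gli1, Gli2 and Gli3. They were taken by gene symbol from the platform annotation. All 8 of 8 were measured, each by exactly 1 probe set, among 19505 genes. By RefSeq (GRCm38.p6) the genes of Gli3 and Ptch1 lie on chromosome 13, those of Ihh and Gli2 on chromosome 1, and those of Shh, Smo, Hhip and Gli1 on chromosomes 5, 6, 8 and 10. The samples were salivary glands of mouse embryos at a stage written as T13, exposed to TGF-β1 (3 arrays) or left untreated as controls (3 arrays), and kept in culture for 72 hours. The sources used here do not give the TGF-β1 dose, the mouse strain or the kind of salivary gland. Nothing in the labels says whether the replicates came from separate animals or cultures, so the p-values below rest on a spread between arrays that may be technical.

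A Hedgehog ligand binds Ptch1, which otherwise holds Smo inactive. Active Smo changes the processing of the Gli proteins at the primary cilium, so that Gli2 and Gli3 act less as repressors and more as activators, and Gli1, Ptch1 and Hhip are themselves transcribed in response. In the embryonic salivary gland Shh is made by the epithelium and is known to promote its branching.

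Of the 8 genes, Gli3 and Hhip were the ones with a difference that passed a test, and both were lower in the TGF-β1 arrays. Each passed in an array-weighted fit (limma, adjusted p under 0.05). In the unweighted limma fit of the 6 arrays neither passed, and there Gli3 had the opposite sign. "Rose" and "fell" below refer to genes that passed with array weights, since without weights limma called 0 of 19505 genes (0%; 389 at an unadjusted p under 0.05), and 0 again with control 3 left out (1487 at an unadjusted p under 0.05). The weighted fit estimates how reliable each array is and treats the weights as known, which makes its p-values too small. Its estimate of the weights follows the arrays that are most alike.

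The array-weighted fit called 1342 of 19505 genes (6.88%), 3.45% of all genes as higher and 3.44% as lower with TGF-β1. Of the 8 Hedgehog genes it called 2 (25%), 0 higher and 2 lower. With control 3 left out and array weights kept, 544 genes passed (2.79%), and 1 of the 8. With control 3 and TGF-β1 3 both left out, the unweighted fit of the remaining 4 arrays called 505 genes (2.59%) and 0 of the 8. At an unadjusted p under 0.05 that fit held 4 of the 8, Ptch1 higher and Gli2, Gli3 and Hhip lower, against 3294 of all 19505 genes (16.9%).

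Control 3 stood apart from the other arrays and bears on each result below. Its Pearson correlation with the others over all genes lay between 0.550 and 0.601, and its interquartile range was 2.05 on the log2 scale, against 3.17 to 3.26 elsewhere. For every one of the 8 genes its value lay outside the range of the other 5 arrays. It was above them for 6 genes and below them for Ptch1 and Gli3. The share of all genes for which this held was not computed, so it is not shown to be particular to these 8. The weights were 0.0338 for control 3 and 0.398 for TGF-β1 3, against 1.65 to 4.52 for the other arrays. Differences are therefore given with array weights, and those without weights or without control 3 stand beside them.

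The levels of cell type markers were read beside the labelled tissue. All 6 listed markers of secretory gland cells (Aqp5, Bpifa2, Smgc, Lpo, Pip and Bhlha15) rose. That is a difference between groups and does not itself check the tissue. The summed linear level of these 6 markers ranged from 15890 to 25297 with TGF-β1, against 559 to 1368 in control arrays. No marker of this list and none of the 6 epithelial or 5 measured mesenchymal markers lay under the lower quartile in all 6 arrays. A marker meets that rule if it is brighter in any array, so the rule does not describe each control. With the quartile at 5.13 in control 2, Bpifa2 (4.65) and Smgc (4.60) fell short of it and the other secretory markers exceeded it. In control 3, Smgc alone of this list fell short (5.65 against 5.79). All secretory markers exceeded the quartile in control 1.

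The promoter windows of Gli3 and Hhip are shown because these are the genes that passed. The windows are from RefSeq (GRCm38.p6), each 300 bases long and written 5′ to 3′ on the gene's strand. The Gli3 window runs from 250 bases before to 50 bases after the gene's start. The Hhip window covers the RefSeq start of the gene (80058060), but that base is not 250 bases from the window's upstream edge. Capitals mark the Smad-binding motif CAGAC or its reverse complement GTCTG, the letters bound by the transcription factors of the TGF-β pathway. The Gli3 window is chr13:15463473-15463772 on the plus strand and the Hhip window chr8:80057959-80058258 on the minus strand.
Gli3: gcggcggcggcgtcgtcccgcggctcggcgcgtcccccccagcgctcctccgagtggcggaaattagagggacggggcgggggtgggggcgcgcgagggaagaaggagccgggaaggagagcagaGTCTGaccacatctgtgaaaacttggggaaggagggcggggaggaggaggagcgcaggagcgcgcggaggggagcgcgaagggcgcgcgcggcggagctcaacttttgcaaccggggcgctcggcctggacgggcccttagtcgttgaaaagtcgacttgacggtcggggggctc
Hhip: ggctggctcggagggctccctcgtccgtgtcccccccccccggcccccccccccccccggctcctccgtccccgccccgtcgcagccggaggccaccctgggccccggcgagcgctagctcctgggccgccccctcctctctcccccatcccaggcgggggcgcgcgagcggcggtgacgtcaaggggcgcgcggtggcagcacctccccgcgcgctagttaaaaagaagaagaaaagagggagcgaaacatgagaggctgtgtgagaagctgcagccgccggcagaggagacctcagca

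The Gli3 window held 1 match to the CAGAC motif on either strand, and the Hhip window 0. Of all 32851 windows of this length, 49.6% held at least 1 such match, so a match is common. The longer Smad motif GTCTAGAC, whose reverse complement is itself, was in 0.213% of all windows and in 0 of the 6 windows found for the 8 genes. The Gli-binding motif GACCACCCA, searched on both strands, was in 0.253% of all windows and likewise in 0 of these 6. Motifs were matched letter by letter, so these counts describe the windows and not where any factor binds.

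**Figure D1:**
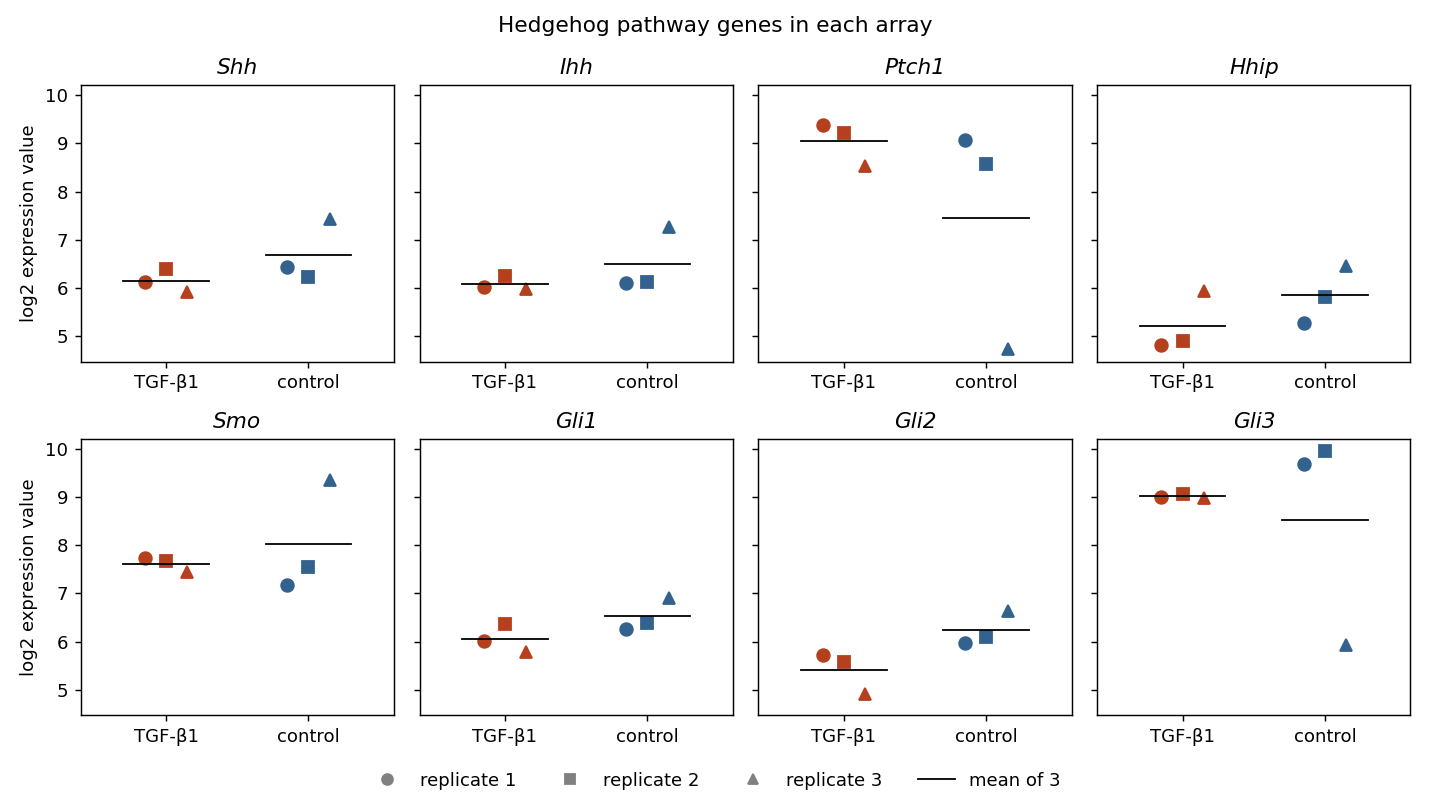
Log2 expression value (y axis) of each Hedgehog gene in the 3 TGF-β1 arrays (left, red) and the 3 control arrays (right, blue); symbols give the replicate number and the black line the mean of 3. Control 3 (blue triangle) lies outside the other 5 arrays in every panel, below them for Ptch1 and Gli3 and above them for the other 6 genes.

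Gli3, the Gli protein that acts mainly as a repressor when no ligand is present, fell. It was at 8.99, 9.07 and 8.98 in TGF-β1 1, 2 and 3, and at 9.69, 9.95 and 5.92 in controls 1, 2 and 3 (log2 value). The TGF-β1 arrays lay within 0.09 of each other, all below controls 1 and 2 and all above control 3, so the groups overlap through that array alone. With array weights Gli3 fell by 0.84 ± 0.18 on the log2 scale (SE, adjusted p = 0.0181), a level 1.79-fold lower in the TGF-β1 arrays.

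The unweighted difference of the 6 arrays was 0.50 ± 1.01 (adjusted p = 0.829), with means of 9.01 ± 0.05 for TGF-β1 and 8.52 ± 2.26 for control (SD, n = 3 each). Without control 3 the difference of Gli3 was -0.80 ± 0.17 (adjusted p = 0.288), and -0.80 ± 0.14 with array weights as well (adjusted p = 0.0321). On the 4 arrays without control 3 and TGF-β1 3 it was -0.79 ± 0.16 (adjusted p = 0.0536). The size of the Gli3 difference thus hardly moved over the fits that left out or down-weighted control 3, while its side of the threshold did. These fits share controls 1 and 2 and TGF-β1 1 and 2, so their closeness is not independent support.

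Some genes of mesenchyme, the tissue around the gland epithelium, moved in the same direction as Gli3. Of the 5 measured mesenchymal markers, 0 rose and 2 fell: Prrx1, a homeobox factor of mesenchyme, by 1.03 on the log2 scale and Twist1, a helix-loop-helix factor, by 0.96. In the unweighted fit of 6 arrays, with control 3 low for both, these differences were 0.76 for Prrx1 and 0.03 for Twist1, of the opposite sign. Without control 3 they were -0.82 and -0.58 unweighted. On the 4 arrays without control 3 and TGF-β1 3 neither passed (adjusted p = 0.0712 for Prrx1 and 0.0716 for Twist1). With array weights but without control 3, Prrx1 passed (adjusted p = 0.0486) and Twist1 did not (adjusted p = 0.0837). Pdgfrb, a growth factor receptor of mesenchymal cells, differed by -0.44 (adjusted p = 0.225), by 0.21 unweighted and by -0.65 without control 3. The summed linear level of the 5 markers was 3478 to 3888 in the TGF-β1 arrays, against 4755 and 6541 in controls 1 and 2 and 1756 in control 3. Of the 6 epithelial markers, 1 rose, 0 fell and 5 did not pass. Epcam, an adhesion molecule, rose by 1.01, but did not pass without control 3 and with array weights (adjusted p = 0.0851) or on the 4 arrays (adjusted p = 0.124). Krt5 and Krt14, keratins of basal cells, differed by -0.49 and -0.59 with array weights and by 0.07 and 0.83 without. Unweighted and without control 3 they differed by -0.03 and -0.22. Cdh1, Krt8 and Krt18 differed the other way with array weights, by 0.69, 0.52 and 0.39, and did not pass. Unweighted, these differed by 1.52, 1.02 and 1.84, and without control 3 by 0.22, 0.69 and 0.52. The summed linear level of the 6 epithelial markers was 15861 to 23493 in the TGF-β1 arrays. It was 15454 and 11658 in controls 1 and 2 and 2331 in control 3. Among the 5 endothelial markers, Kdr, a growth factor receptor, fell by 1.35 and the other 4 did not pass. Kdr differed by -0.64 unweighted and by -1.15 without control 3, and passed on the 4 arrays (adjusted p = 0.0256). All 3 measured neuron and glia markers rose, with a median difference of 0.66 (0.65 unweighted, 0.77 without control 3), and 0 passed on the 4 arrays. Of these, Elavl4 lay under the lower quartile in all 6 arrays. The part of the cell mixture in the Gli3 result was not tested. In glands measured whole, fewer cells of a type and less RNA per cell cannot be told apart.

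Gli2, the main activator among the Gli proteins, was the gene whose groups did not overlap over all 6 arrays. It was at 5.73, 5.57 and 4.91 in TGF-β1 1, 2 and 3, and at 5.98, 6.10 and 6.63 in controls 1, 2 and 3. All 3 TGF-β1 arrays were below all 3 controls. Non-overlapping groups were seen in 1 of these 8 genes (12.5%), against 11.6% of all genes (5.78% lower).

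The difference of Gli2 was -0.83 ± 0.37 unweighted (adjusted p = 0.776), the smallest unweighted p of the 8 genes, and -0.44 ± 0.16 with array weights (adjusted p = 0.131). It did not pass in any fit. Its distance between groups was widest in TGF-β1 3 and control 3, the arrays that stand apart, and on the other 4 arrays it was -0.39 ± 0.15 (adjusted p = 0.249). The value in TGF-β1 3 (4.91) lay under the lower quartile of that array (5.13). The limit stated below for the low values of Hhip applies to it too.

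Gli1, an activator whose transcription is itself a common readout of Hedgehog signalling, did not pass either. It was at 6.01, 6.37 and 5.79 in TGF-β1 1, 2 and 3, and at 6.27, 6.39 and 6.91 in controls 1, 2 and 3. TGF-β1 2 lay between controls 1 and 2, and TGF-β1 1 and 3 lay below all controls. The array-weighted difference was -0.24, with a 95% confidence interval of -0.58 to 0.10 (adjusted p = 0.435). Without control 3 the interval was -0.80 to 0.25.

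Ptch1, the receptor and another gene transcribed in response to Hedgehog, was at 9.39, 9.21 and 8.52 in TGF-β1 1, 2 and 3, and at 9.07, 8.58 and 4.73 in controls 1, 2 and 3. TGF-β1 1 and 2 were the highest arrays, TGF-β1 3 was below controls 1 and 2, and control 3 was far below the mean of controls 1 and 2. The unweighted difference of 1.58 ± 1.08 (adjusted p = 0.776) rests on control 3: without it the difference was 0.21 ± 0.31 (adjusted p = 0.942). With array weights it was 0.59, with an interval of 0.11 to 1.07 (adjusted p = 0.142).

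Hhip, a membrane protein that binds the ligands and so limits their action, fell by 0.78 ± 0.20 on the log2 scale with array weights (adjusted p = 0.0379), a level 1.72-fold lower. It was at 4.81, 4.90 and 5.94 in TGF-β1 1, 2 and 3, and at 5.28, 5.81 and 6.46 in controls 1, 2 and 3. TGF-β1 1 and 2 were below all controls, but TGF-β1 3 was above controls 1 and 2. This fit gave TGF-β1 3 a low weight, and Hhip passed in it alone.

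Hhip did not pass in the other fits. The unweighted difference of Hhip was -0.64 ± 0.47 (adjusted p = 0.776), without control 3 it was -0.33 ± 0.39 (adjusted p = 0.930), and without control 3 but with array weights -0.65 ± 0.22 (adjusted p = 0.189). On the 4 arrays without control 3 and TGF-β1 3 it was -0.70 ± 0.20 (adjusted p = 0.131). The values of Hhip in TGF-β1 1 and 2 lay under the lower quartile of their arrays (5.15 and 5.11). The files give no measure of background, so it is not known how far a value this low still follows the transcript.

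The estimates for the 3 genes known as transcriptional readouts of the pathway thus differed in sign. With array weights Hhip fell, Gli1 differed by -0.24 and Ptch1 by 0.59. The last 2 did not pass, so neither a shared nor an opposed direction is shown.

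**Figure D2:**
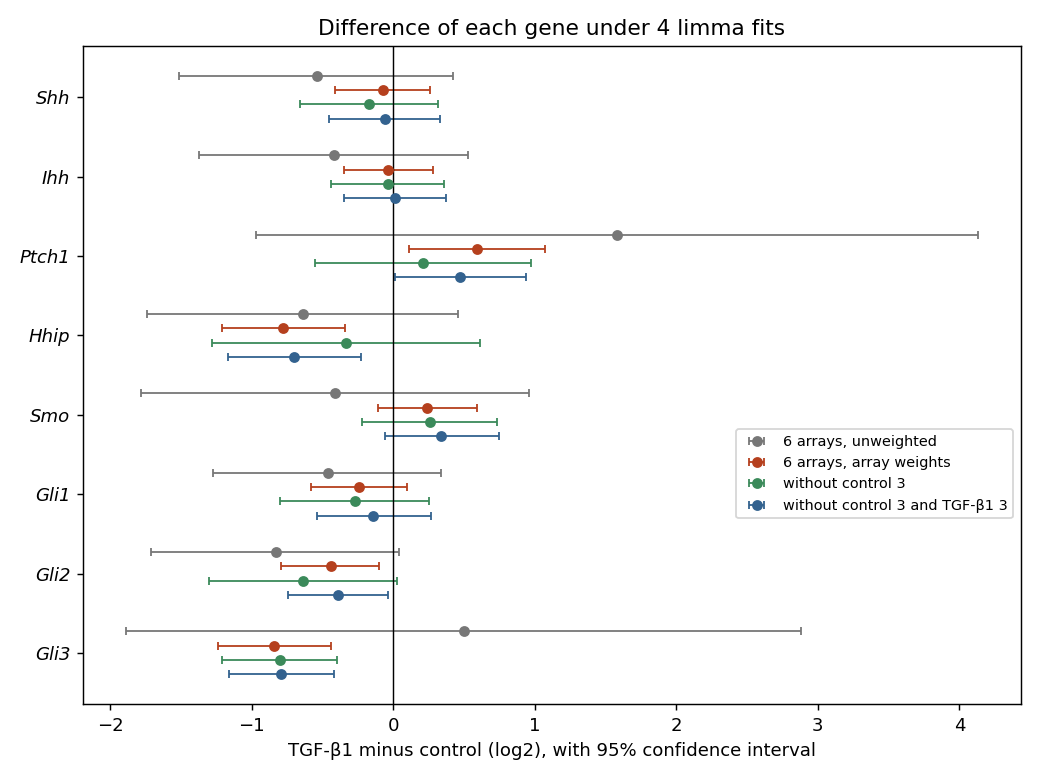
Difference between the TGF-β1 and control arrays (x axis, log2, TGF-β1 minus control) for the 8 Hedgehog genes under 4 limma fits; points are estimates and bars 95% confidence intervals. For Gli3 the estimate is 0.50 in the unweighted fit of 6 arrays and -0.84 to -0.79 in the other 3 fits, and the intervals of Ptch1 and Gli3 are widest where control 3 enters with full weight.

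Smo, the membrane protein that carries the signal on from Ptch1, was at 7.74, 7.67 and 7.44 in TGF-β1 1, 2 and 3, and at 7.18, 7.55 and 9.36 in controls 1, 2 and 3. TGF-β1 3 lay between controls 1 and 2, TGF-β1 1 and 2 were above both, and control 3 was above every other array. The unweighted difference was -0.41 ± 0.58 (adjusted p = 0.782) and turned to 0.24 ± 0.16 with array weights (adjusted p = 0.461). The array-weighted interval was -0.11 to 0.59.

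Neither ligand passed. Shh was at 6.13, 6.39 and 5.92 in TGF-β1 1, 2 and 3, and at 6.43, 6.22 and 7.43 in controls 1, 2 and 3. Ihh, a ligand best known from growing cartilage, was at 6.02, 6.24 and 5.97 in TGF-β1 1, 2 and 3, and at 6.11, 6.12 and 7.26 in controls 1, 2 and 3. For Ihh the TGF-β1 arrays were spread around controls 1 and 2. For Shh, TGF-β1 2 lay between controls 1 and 2, and TGF-β1 1 and 3 lay below both. Control 3 was above every other array for both genes.

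The array-weighted differences were -0.07 for Shh, with an interval of -0.41 to 0.26, and -0.04 for Ihh, with an interval of -0.35 to 0.28 (adjusted p = 0.858 and 0.935). Unweighted, Shh differed by -0.54 and Ihh by -0.42; leaving out control 3 gave -0.17 for Shh and -0.04 for Ihh. Shh and Ihh lay between percentiles 37.5 and 46.2 of all probe sets in every array but control 3, where they were at percentiles 65.8 and 61.5. Of the 7 cartilage markers, Cnmd, a matrix protein of cartilage, rose by 3.35 on the log2 scale (3.27 unweighted, 3.22 without control 3) and the other 6 did not pass. Their part in the level of Ihh was not tested.

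Over the 8 genes the median difference was -0.16 with array weights, against 0.01 over all genes, and -0.44 unweighted, against -0.14 over all genes. With control 3 left out, 2 of the 8 genes had non-overlapping groups, Gli2 and Gli3, both lower. That is 25% of them, and 25.2% of all genes had non-overlapping groups in those 5 arrays, 12.3% lower, so the share is near that of the whole table.

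The other 5 of 40 listed pathway genes were not analysed here. Among the 35 measured, 0 rose, 1 fell and 34 did not pass with array weights. The 1 call is 2.86% of them, against 6.88% of all genes. Their median difference was -0.02, against 0.01 over all genes, and 0 of the 35 passed in the unweighted fit or without control 3 and TGF-β1 3. The gene that fell was Ccnd2, a cyclin of the G1 phase and a listed target of Gli proteins. It was at 8.91, 8.51 and 8.49 in TGF-β1 1, 2 and 3, and at 9.73, 9.47 and 6.83 in controls 1, 2 and 3. As for Gli3, all TGF-β1 arrays were below controls 1 and 2 and above control 3.

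Ccnd2 fell by 0.77 ± 0.18 on the log2 scale (adjusted p = 0.0259). Its unweighted difference over 6 arrays was -0.04 ± 0.76 (adjusted p = 0.982), and without control 3 it was -0.96 ± 0.20 (adjusted p = 0.294). On the 4 arrays without control 3 and TGF-β1 3 it differed by -0.89 (adjusted p = 0.0599). The other 6 measured targets did not pass.

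None of the 6 genes on the release list passed. These were Dhh, another Hedgehog ligand, and genes of ligand acylation, release and spread. Dhh differed by 0.32 ± 0.16 (adjusted p = 0.286), by -0.45 unweighted and by 0.19 without control 3. It lay under the lower quartile of every array but control 3. Scube1, a secreted protein of the family that carries Hedgehog away from cells, was at 8.57, 9.94 and 9.23 in TGF-β1 1, 2 and 3, and at 9.58, 10.64 and 8.83 in controls 1, 2 and 3. It differed by -1.29 ± 0.36 (adjusted p = 0.0573), and its groups overlap. Unweighted the difference of Scube1 was -0.44, and -0.87 without control 3. Hhat, the enzyme that attaches palmitate to the ligands, differed by 0.52 ± 0.15 (adjusted p = 0.0668), by -0.23 unweighted and by 0.35 without control 3.

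None of the 5 measured coreceptors and ligand-binding proteins passed. Cdon, a coreceptor that helps the ligand bind, was at 7.91, 8.14 and 7.99 in TGF-β1 1, 2 and 3, and at 8.26, 8.69 and 7.53 in controls 1, 2 and 3. All TGF-β1 arrays were below controls 1 and 2, and the difference was -0.58 ± 0.16 (adjusted p = 0.0552), against -0.15 unweighted and -0.46 without control 3. Gas1, another coreceptor, differed by 0.30 ± 0.16 (adjusted p = 0.338), by -0.25 unweighted and by 0.27 without control 3.

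None of the 13 measured genes of signal transduction and none of the 4 of the cilium passed. Sufu, which holds Gli proteins in the cytoplasm, was at 9.36, 9.50 and 7.84 in TGF-β1 1, 2 and 3, and at 8.81, 8.61 and 7.07 in controls 1, 2 and 3. TGF-β1 1 and 2 were above all controls and TGF-β1 3 was below controls 1 and 2. Its difference was 0.66 ± 0.22 (adjusted p = 0.0972), against 0.73 unweighted and 0.18 without control 3. Evc, a cilium protein that binds Smo, differed by -0.40 ± 0.16 (adjusted p = 0.196), by -0.16 unweighted and by -0.32 without control 3. Of the cilium genes, Ift172, a subunit of the transport machinery within cilia, differed by -0.33 ± 0.15 (adjusted p = 0.231) and Kif3a, a motor of that transport, by -0.14 ± 0.16 (adjusted p = 0.699). Unweighted, these 2 differed by 0.07 and 0.38, and without control 3 by -0.25 and 0.03.

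**Figure D3:**
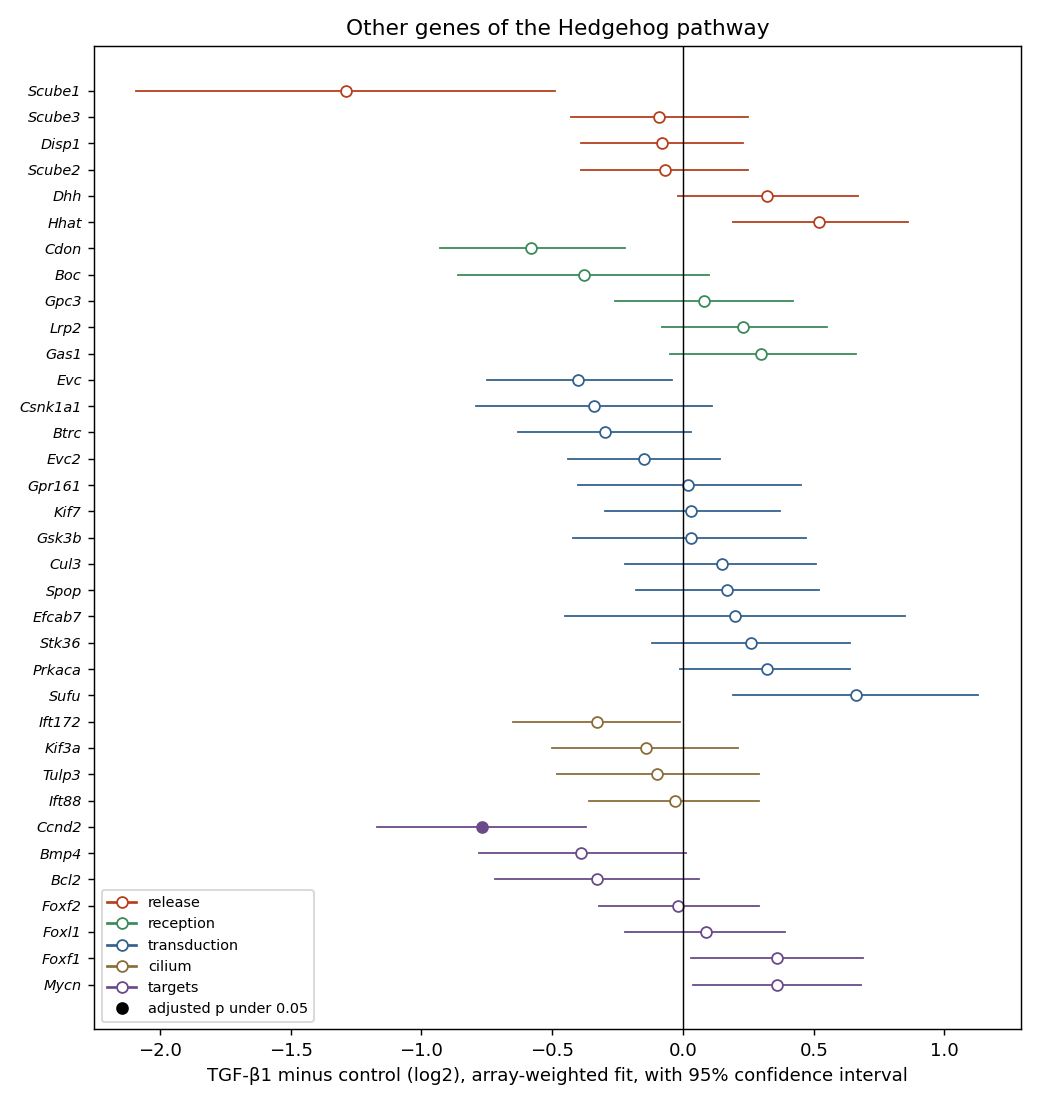
Difference between TGF-β1 and control arrays in the array-weighted fit (x axis, log2, TGF-β1 minus control) for 35 other genes of the Hedgehog pathway, coloured by role; bars are 95% confidence intervals and filled points passed at an adjusted p under 0.05. Ccnd2, at -0.77, is the filled point, and the differences span -1.29 (Scube1) to 0.66 (Sufu).

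The genes whose pattern was most like that of Gli3 were sought by the root mean square difference between profiles, each centred on its own mean over the 5 arrays other than control 3. They were Prickle2, a protein of planar cell polarity (0.033 log2 units), Gas7, an actin-binding protein (0.044), and Map4, a microtubule-associated protein (0.059). In control 3, which the measure did not use, Prickle2 was at 7.91, inside its range of 7.13 to 8.14 in the other arrays, while Map4 was at 4.62 and Gas7 at 6.49, both below theirs. Gli3 too was below its other values in control 3.

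For Hhip the nearest were Dtx3l, a ubiquitin ligase (0.018), Loxl1, a crosslinking enzyme of elastic fibres (0.047), and Irf9, a transcription factor of the interferon response (0.062). Dtx3l was at 6.38, 6.51 and 7.55 in TGF-β1 1, 2 and 3, and at 6.86 and 7.42 in controls 1 and 2. Like Hhip, these genes were higher in TGF-β1 3 than in any of the other 4 arrays. Hhip exceeded all 5 others in control 3, where Loxl1 was at 4.66, below its other values.

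**Figure D4:**
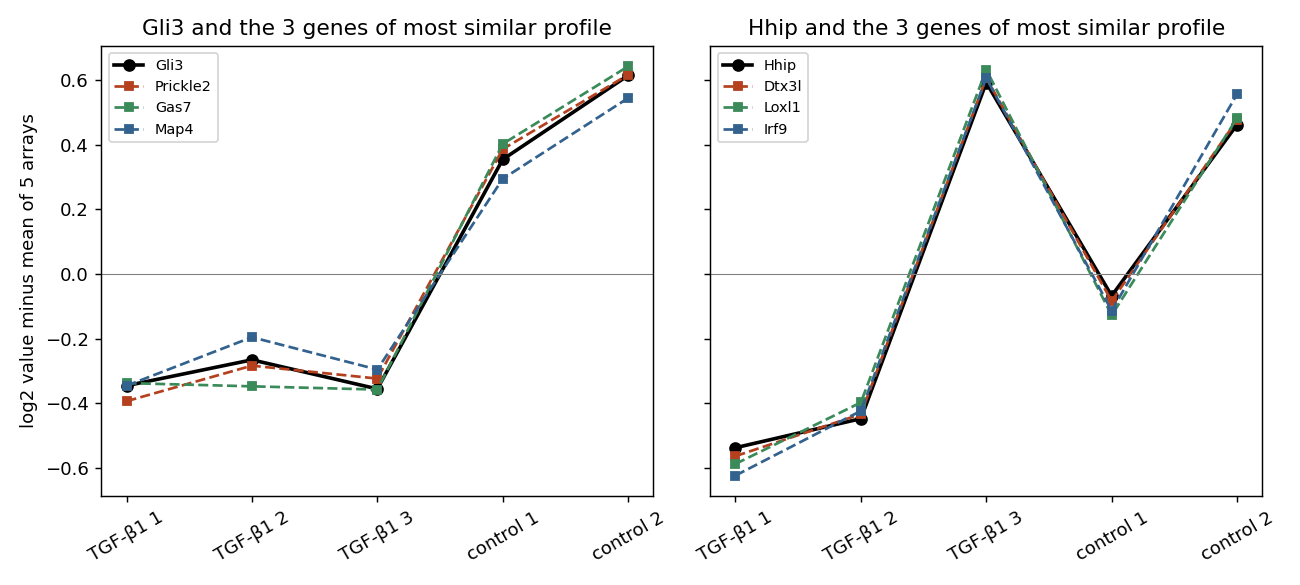
Log2 value minus the mean of the 5 arrays (y axis) for Gli3 (left) and Hhip (right), in black, and the 3 genes with the most similar profile to each (dashed), in the 3 TGF-β1 arrays and controls 1 and 2 (x axis). The Gli3 group is flat over the TGF-β1 arrays and higher in both controls; the Hhip group peaks in TGF-β1 3.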

How the data were processed

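Affymetrix arrays were hybridised with biotin-labelled cRNA from 6 µg of total RNA, per the labels' protocols. The deposited table holds log2 expression values for 22206 probe sets in 6 arrays, a product of RMA as run by the authors according to the submitters' processing notes, with no version. They were used as deposited. Of these probe sets, 19572 carry exactly 1 gene symbol in the platform annotation and 2634 are unnamed here. Where a gene had several, the one with the highest mean stood for it, which gave 19505 genes.

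The test was limma 3.58.1 under R 4.3.3 (eBayes after lmFit, two-sided, Benjamini-Hochberg over 19505 genes, threshold 0.05). The planned test was unweighted on all 6 arrays; array weights and fits without control 3 or without control 3 and TGF-β1 3 stand beside it. A difference is TGF-β1 minus control; the spread of log2 values is given as SD and that of differences as SE. Named beside the 8 genes are other pathway genes called in the array-weighted fit, or the 2 of smallest p per list where none was. The ligand Dhh and the 3 genes of most similar profile to each called gene are named as well. The genes and lists were chosen with earlier results of these data known. The fits were tested on simulated data. Arrays carry no read depth; their number limits the precision. Replicate numbers are shared by the groups. Deviations of same-numbered arrays from their group means correlated at -0.066, -0.008 and -0.050. Control 3 shifts the control mean that these deviations use, so the correlations cannot settle whether the arrays were paired. The arrays were not treated as pairs, and a fit with the replicate number as a block is given below.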

Additional observations from a re-analysis of the deposited data

How the results depend on the processing

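Of all 19505 genes, 0 passed in the unweighted fit of 6 arrays, against 1342 with array weights, 544 with array weights without control 3, and 505 without control 3 and TGF-β1 3. The Hedgehog genes that passed were 2 with array weights, 1 with array weights without control 3 and 0 in all other settings, and of the 35 other pathway genes 1, 1 and 0 passed. Leaving out 1 array at a time, unweighted, gave 0 for all 3 counts each time. Gli3 changed sign from 0.50 to -0.84 with array weights, -0.80 with array weights without control 3, -0.79 without control 3 and TGF-β1 3, and -0.80 without control 3; over all 6 fits that left out 1 array it ran from -0.80 to 1.21. Smo changed sign from -0.41 to 0.24, 0.34, 0.34 and 0.26 under the same 4 settings. Ihh changed sign to 0.01 without control 3 and TGF-β1 3. The remaining settings were run on the unweighted fit, where 0 of the 8 genes passed, so no call could be lost. They were not run with array weights. Quantile normalization, median centring, the mean of probe sets, a trended and robust prior, and a threshold of 0.01 changed no sign. They added no call among the 8 genes either. In the array-weighted fit Gli3 (adjusted p = 0.0181) and Hhip (adjusted p = 0.0379) would not pass at 0.01. The filter that kept the 13003 brighter genes left out Gli2 and Hhip and changed none of the other 6. With the replicate number as a block, 0 genes passed (322 at an unadjusted p under 0.05, against 389 without the block), and no call was added.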
